A study of Homo sapiens with 4 samples.

Results

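The genes described here encode the subunits of the mitochondrial respiratory chain that are made in the nucleus. They were taken by symbol from the RefSeq GRCh38.p14 table as the protein-coding genes of chromosomes 1 to 22 and X that start with NDUFA, NDUFB, NDUFC, NDUFS or NDUFV, the genes SDHA to SDHD, and those starting with UQCR, COX4 to COX8, ATP5F, ATP5M or ATP5P, without the NDUFAF assembly factors. This gave 87 of 19974 protein-coding genes: 38 of complex I, 4 of complex II, 9 of complex III, 17 of complex IV and 19 of complex V, the ATP synthase. The rule used no measured value. Of the 87, 2 are readthrough genes that run from a subunit gene into its neighbour, NDUFC2-KCTD14 and ATP5MF-PTCD1, so that their peaks can lie in the neighbour. CYC1, the haem subunit of complex III, and COXFA4, formerly NDUFA4, fall outside the symbols taken.

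STARR-seq, an assay of enhancer activity, was run in MDA-MB-231, a triple-negative human breast cancer line with mesenchymal features. In this assay a plasmid library of sheared genomic DNA, here from the same line, is transfected, and a fragment with enhancer activity drives its own transcription, so that the reporter RNA carries the fragment's sequence. There were 4 treatments with 1 library and 1 peak list each: the solvent DMSO, 10 µM SHP1705, 100 nM MG132, and both drugs together. All cells carried the same plasmid library, the drugs were in the medium before transfection, and RNA was taken after 8 h. The labels call SHP1705 a stabilizer of CRY2, a repressor of the circadian clock, and MG132 blocks the proteasome. With 1 library a treatment there is no spread between replicates, so no test was made and every difference compares libraries.

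Complexes I and II feed electrons from NADH and succinate into the chain, complex III passes them through cytochrome c to complex IV, which reduces oxygen, and complex V uses the resulting proton gradient to make ATP. The catalytic core of complex IV, cytochrome b of complex III and the membrane core of complex I are encoded by mitochondrial DNA, and the nuclear subunits add the flavin and iron-sulphur proteins of complex I, the Rieske protein of complex III and many small accessory proteins. The nuclear genes are short, active in nearly every tissue and known for promoters that bind the ETS factor GABP, NRF1 and YY1. Many of them have processed pseudogenes, intronless copies of their mRNA elsewhere in the genome.

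A peak here is a stretch called from the pileup, the number of fragments covering a base, and its height is the pileup at the summit per 1000000 fragments of its library (FPM). The SHP1705 library held 118324303 fragments and the other libraries 27289266 to 29717604. The lists held 47822 peaks in DMSO, 85840 in SHP1705, 69842 in MG132 and 57174 under both drugs on these chromosomes. The median peak was 0.786 FPM in SHP1705 against 5.42 to 8.04 in the other lists, so the deeper library also called far lower peaks, and its smallest callable width was 299 bp against 346 to 355 bp. CDKN2A, CDKN2B and MTAP are neighbouring genes known to be deleted in MDA-MB-231, where no summit should lie. They held 11 summits in SHP1705 and 1 in each other list, which is therefore given before any result. In SHP1705 the tallest stood at 5.16, 27.8 and 5.44 FPM. MTAP had 0.942 in DMSO and 2.47 in the combination, and CDKN2B had 0.660 in MG132. Of all protein-coding genes, 75.9% held a SHP1705 summit. Whether each library is from the labelled line was not tested. VIM, CD44, FN1 and TGFBI, mesenchymal genes of this line, held a summit in all 4 lists. So did the luminal genes EPCAM and ESR1, and 24.8% of all protein-coding genes. The luminal gene GATA3 held one in SHP1705 and MG132, and FOXA1 in SHP1705 alone. Heights differed more than presence. The tallest SHP1705 summits stood at 589 FPM in VIM, 55.9 in CD44, 268 in FN1 and 362 in TGFBI. In the other lists these mesenchymal genes had 1.28 to 15.9. The luminal genes had 33.4 in EPCAM, 2.99 in ESR1, 0.862 in GATA3 and 1.72 in FOXA1 in SHP1705. In the other lists EPCAM had 2.05 to 4.98 and ESR1 9.05 to 19.1. The liver gene ALB had 24.0 FPM in DMSO alone, and the blood gene HBB had no summit. The presence of a summit does not tell cell types apart, as a peak here is no measure of expression. Whether the heights do was not tested. The plasmid DNA was not analysed here, so the abundance of a fragment in the library and its activity cannot be told apart.

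The promoters of the members were set beside the peaks first, because these genes are known for their shared promoter motifs. A RefSeq promoter sequence, 250 bases before the start and 50 after it, was matched to 70 of the 87 members. A SHP1705 peak overlapped 13 of the 70 windows (18.6%, against 19.2% of the 15813 windows of protein-coding genes). In DMSO no member window was overlapped (background 1.42%). MG132 had 1, that of COX7C (background 1.82%), and the combination had 1, that of ATP5PF (background 1.53%). The member shares were thus near those of all genes in each list.

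Of the 13 windows overlapped in SHP1705, the 250 bases before the start were covered in full in 3, those of ATP5PF, NDUFA1 and UQCRH. NDUFB2 was the only member with a summit inside its window. These 4 upstream sequences, picked after the peaks were seen, are shown with that of COX7C, the window reached by an MG132 peak. Sequences are from the RefSeq table of GRCh38.p14, read 5′ to 3′ on the gene's strand, and end at the base before the start. Capitals mark the letters CCGGAAG (an ETS site), GCATGCG (the core of the NRF1 site), AAGATGG (a YY1 core) and CACGTG (the E-box bound by the clock factors), searched on both strands.
ATP5PF, chr21:25735055-25735304, minus strand: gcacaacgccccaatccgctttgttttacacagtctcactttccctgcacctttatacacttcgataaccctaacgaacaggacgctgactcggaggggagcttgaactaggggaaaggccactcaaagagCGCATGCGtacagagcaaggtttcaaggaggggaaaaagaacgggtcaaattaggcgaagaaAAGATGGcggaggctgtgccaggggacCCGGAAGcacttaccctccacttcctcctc
NDUFA1, chrX:119871582-119871831, plus strand: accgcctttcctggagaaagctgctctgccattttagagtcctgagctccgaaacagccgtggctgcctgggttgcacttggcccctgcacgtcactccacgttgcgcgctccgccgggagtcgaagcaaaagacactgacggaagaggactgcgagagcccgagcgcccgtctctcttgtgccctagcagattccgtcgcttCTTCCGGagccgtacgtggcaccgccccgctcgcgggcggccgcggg
UQCRH, chr1:46303448-46303697, plus strand: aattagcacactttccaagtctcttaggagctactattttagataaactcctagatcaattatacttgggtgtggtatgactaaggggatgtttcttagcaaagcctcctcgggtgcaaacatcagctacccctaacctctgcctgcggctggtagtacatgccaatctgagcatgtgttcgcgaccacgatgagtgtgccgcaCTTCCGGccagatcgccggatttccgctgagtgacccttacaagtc
NDUFB2, chr7:140696458-140696707, plus strand: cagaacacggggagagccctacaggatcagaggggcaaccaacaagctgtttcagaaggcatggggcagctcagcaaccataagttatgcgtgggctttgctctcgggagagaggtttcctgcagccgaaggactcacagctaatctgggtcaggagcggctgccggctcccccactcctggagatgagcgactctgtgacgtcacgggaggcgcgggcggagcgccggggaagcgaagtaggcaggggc
COX7C, chr5:86617691-86617940, plus strand: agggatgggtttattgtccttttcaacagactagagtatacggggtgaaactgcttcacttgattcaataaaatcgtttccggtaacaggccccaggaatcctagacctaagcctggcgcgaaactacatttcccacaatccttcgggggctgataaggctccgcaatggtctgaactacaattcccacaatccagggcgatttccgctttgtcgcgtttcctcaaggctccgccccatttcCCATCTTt

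All 3 fully covered sequences held ETS letters, and that of ATP5PF, which encodes a stalk subunit of the ATP synthase known as coupling factor 6, also held the NRF1 letters, in a run that reads the same on both strands, and the YY1 letters. NDUFB2 held none of the letters searched, and COX7C held YY1 letters on the opposite strand. The ATP5PF peak in SHP1705 spanned chr21:25734634-25735665 at 3.03 FPM. Its summit, at position -436 from the start of the promoter window, also lay inside the divergent gene GABPA, which encodes the DNA-binding subunit of GABP. The ATP5PF gene interval begins further upstream, at 25735653. Counted from there, the summit lay 163 bp inside the gene, and the sequence shown lies within the gene. Counts of summits near a gene start, given below, use the gene interval. The combination peak of ATP5PF reached 6.28 FPM and covered 0 of the upstream bases. The peak over the NDUFA1 sequence, at 6.88 FPM, had its summit in the neighbour RNF113A, and that over UQCRH, at 1.36 FPM, in LRRC41. At NDUFB2, an accessory subunit of complex I, the summit stood 34 bases past the start at 1.11 FPM, and the peak covered 19 of the upstream bases. The COX7C peak in MG132, at 4.21 FPM, covered none of them, and its summit stood 495 bases past the start.

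Over the whole promoter windows, ETS letters were in 20 of 70 members (28.6%) and in 14.2% of all windows, NRF1 letters in 13 (18.6%) and 5.14%, YY1 letters in 16 (22.9%) and 6.40%, and the E-box in 7 (10.0%) and 8.87%. The letters of the 3 known regulators were thus more frequent in the members than in all promoters, with member Wilson 95% intervals of 19.3 to 40.1%, 11.2 to 29.2% and 14.6 to 34.0%, while the E-box interval of 4.93 to 19.2% held the value for all promoters. A SHP1705 peak overlapped 7 of the 27 windows with ETS, NRF1 or YY1 letters in the upstream part (25.9%) and 6 of the 43 without (14.0%). These shares rest on few windows, no interval or all-promoter share was computed for them, and a link of letters and peaks was not tested. A match is a run of letters and not a bound site.

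A summit lay inside 19 of the 87 members in DMSO (21.8%, Wilson 95% interval 14.5 to 31.6%), 66 in SHP1705 (75.9%, 65.9 to 83.6%), 25 in MG132 (28.7%, 20.3 to 39.0%) and 25 under both drugs (28.7%, 20.3 to 39.0%). Over all protein-coding genes the shares were 42.1%, 75.9%, 51.6% and 45.7%. The members were therefore hit less often than the average gene in DMSO, MG132 and the combination, and as often in SHP1705. They are also short, with a median length of 9936 bp against 24170 bp, and a short gene catches fewer summits. Among the 4915 genes within the members' interquartile length, 5471 to 17631 bp, the shares were 22.2%, 66.4%, 31.3% and 24.8%, beside 18.6%, 79.1%, 18.6% and 23.3% of the 43 members in that range. The Wilson intervals of the 43, of 9.74 to 32.6% in DMSO and MG132, 64.8 to 88.6% in SHP1705 and 13.2 to 37.7% under both drugs, hold the share of genes of like length in every list. Once length was matched, no difference from other genes was thus detectable at this number of members. Intervals cover counting error only. The MG132 count rested on list length: with each list kept to its 47822 strongest peaks, MG132 held 16 members, DMSO 19, the combination 22 and SHP1705 58.

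**Figure D1:**
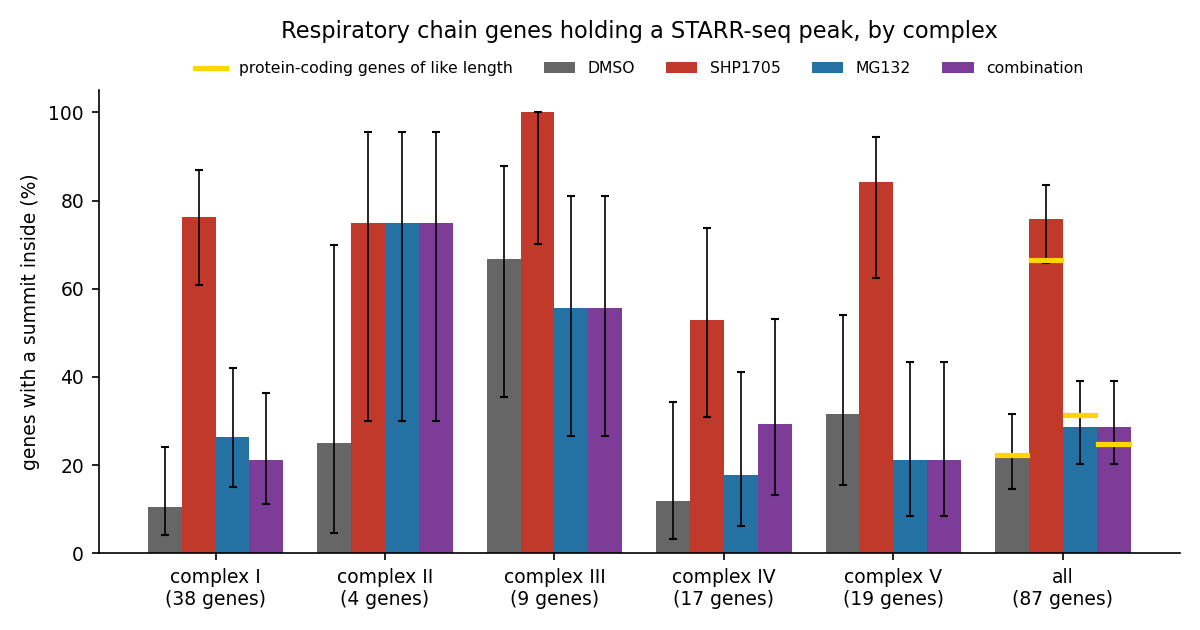
Share of members with a peak summit inside the gene (y axis, %) by complex (x axis) and list (bar colour), with Wilson 95% intervals as error bars and the share of protein-coding genes of like length as yellow lines over the last group. SHP1705 stands above the other lists in complexes I, III, IV and V, and in complex II, with 4 genes, it equals MG132 and the combination.

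Across complexes the order of the lists was not the same. Complex III had the highest share in DMSO and SHP1705, with 6 of 9 genes in DMSO, 9 in SHP1705, 5 in MG132 and 5 under both drugs. Complex II, whose genes are the longest, with a median of 42068 bp, held 1, 3, 3 and 3 of 4. Complex I, whose median length of 12268 bp exceeds that of complex III (8294 bp), held 4, 29, 10 and 8 of 38. Complex IV held 2, 9, 3 and 5 of 17, the lowest share in SHP1705, and complex V held 6, 16, 4 and 4 of 19. The intervals of the complexes overlap within each list except in DMSO, where complex III (35.4 to 87.9%) lay above complexes I (4.17 to 24.1%) and IV (3.29 to 34.3%).

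Presence patterns were mostly narrow. Of the 87 members, 15 held no summit in any list, 63 in some but not all lists (72.4%, against 60.6% of all genes) and 9 in all 4. Of the 63, 34 were in 1 list, 22 in 2 and 7 in 3. The 9 with a summit in every list (10.3%, against 24.8% of all protein-coding genes) were NDUFA10, SDHA, UQCRB, UQCRFS1, UQCRHL, COX7A2L, COX7B2, ATP5F1A and ATP5MF-PTCD1, and in the matched length range the shares were 4.65% and 6.57%. SHP1705 alone held 29 members (33.3%, against 16.8%), or 37.2% against 28.8% in the matched range. Without SHP1705, 43 members held a summit in at least 1 list (49.4%, against 68.6%), or 48.8% against 52.2% in the matched range, and the 9 named above were also the members found in DMSO, MG132 and the combination together (background 25.6%). Empty in all lists were 17.2% of the members against 14.6% of all genes, and in the matched range 14.0% against 19.0%, the other way round. They were NDUFA1, NDUFA3, NDUFA7, NDUFB3, NDUFB9, NDUFB10, NDUFS5, COX6A1, COX6A2, COX6B2, COX7A1, COX8C, ATP5ME, ATP5MF and ATP5F1E.

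**Figure D2:**
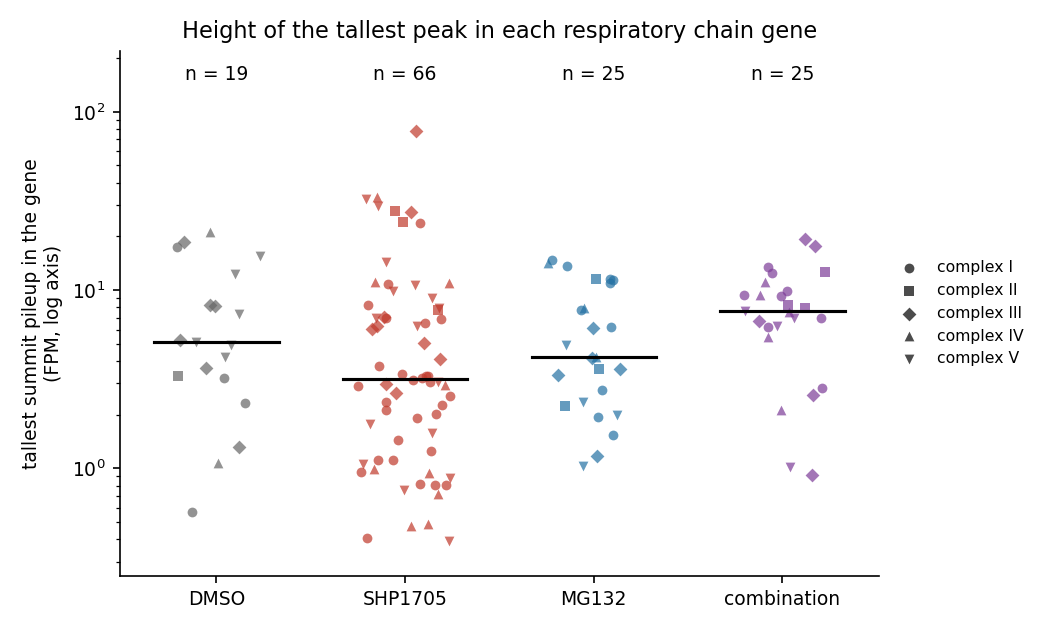
Height of the tallest summit in each member (y axis, FPM, log axis) in each list (x axis), with 1 point a gene, marker shape for the complex and a black line at the median over members with a summit. SHP1705 covers the widest range, from 0.389 to 78.2, and its median of 3.17 is the lowest of the 4.

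The catalytic subunits of complex I carry the flavin and the iron-sulphur clusters that take electrons from NADH to ubiquinone. NDUFV1, the NADH-binding subunit, had 6.85 FPM in SHP1705 and no peak elsewhere. NDUFV2, its iron-sulphur partner, had a peak in the combination alone, at 2.82. NDUFS1, the largest cluster-bearing subunit, had 3.76 in SHP1705 and 2.75 in MG132. NDUFS3, NDUFS7 and NDUFS8 were found in SHP1705 alone, at 0.820, 1.44 and 3.06. None of these 6 was found in more than 2 lists.

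The other 31 genes of complex I held a summit in 3 in DMSO, 23 in SHP1705, 9 in MG132 and 7 under both drugs. NDUFA10, an accessory subunit whose gene is 132901 bp long, reached 17.4 in DMSO, 6.95 in SHP1705, 11.4 in MG132 and 6.95 under both drugs. Its DMSO peak of 17.4 at chr2:239892983-239893455 and its MG132 peak of 11.4 at chr2:239893679-239894067 are neighbours that do not overlap. NDUFB5, a membrane-arm subunit, stood at 23.7 in SHP1705 and 1.54 in MG132. NDUFB8 had the tallest member peak in MG132, at 14.7, beside 1.91 in SHP1705 over an overlapping stretch. NDUFB1 had the third tallest in the combination, at 13.5, beside 0.955 in SHP1705. NDUFS4, an accessory subunit whose loss causes Leigh syndrome, held 1 region in 3 lists, chr5:53662591-53663066, at 3.19 in SHP1705, 0.733 in MG132 and 7.87 under both drugs, with no DMSO peak there. On the FPM scale the combination value lay above both single-drug values. Its exact Poisson interval was 6.87 to 8.97, against 2.88 to 3.53 in SHP1705 and 0.448 to 1.13 in MG132. On raw pileups the order against SHP1705 was reversed, with 378 fragments in SHP1705, 223 in the combination and 20 in MG132.

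Succinate dehydrogenase, complex II, links the citric acid cycle to the chain. SDHA, its flavoprotein, had its tallest summit at 3.30 FPM in DMSO, 7.77 in SHP1705, 11.5 in MG132 and 8.29 under both drugs, and none of its peaks overlapped one of another list. SDHB, the iron-sulphur subunit, had 3.63 in MG132 and 7.98 under both drugs and was the only member found in those lists alone. SDHC and SDHD, the membrane anchors, were among the tallest in SHP1705, at 27.8 and 24.2. SDHC also had 2.24 in MG132 in the same region and 12.6 in the combination at another place. SDHD had no peak in the other lists.

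In complex III all 9 genes held a SHP1705 summit. UQCRC1 and UQCRC2 encode the core proteins, and UQCRFS1 the Rieske iron-sulphur protein. UQCRC2 had the second tallest member peak in DMSO, at 18.6, with 7.07 in SHP1705 over an overlapping stretch, and the tallest in the combination, at 19.3, at a distant place in the gene. UQCRC1 had 8.11 in DMSO, 4.10 in SHP1705 and 4.18 in MG132. UQCRB, a quinone-binding subunit, shared chr8:96223852-96224342 among DMSO at 8.28, MG132 at 3.33 and the combination at 17.7, with exact Poisson intervals of 7.28 to 9.38, 2.68 to 4.09 and 16.2 to 19.3 that do not overlap. The SHP1705 summit in UQCRB, at 2.98, lay elsewhere in the gene. The small subunits UQCR10, UQCR11 and UQCRQ had SHP1705 peaks of 6.01, 5.02 and 6.32, and UQCRQ shared its region with the combination at 6.71.

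The nuclear subunits of complex IV surround the mitochondrial core, and several come as a widely expressed and a tissue-restricted form. Of the 6 restricted isoforms COX4I2, COX6A2, COX6B2, COX7A1, COX7B2 and COX8C, 4 were empty in all lists, against 14.6% of all genes. The 4 empty genes are only 630 to 5016 bp long, and a short gene catches fewer summits. The median length was 3271 bp for the 6 isoforms and 7641.5 bp for their 6 widely expressed partners. No length-matched share was computed for either set, so emptiness is not shown to go with restricted expression. COX4I2, an isoform of lung, had 2.12 in the combination alone. COX7B2, a testis isoform in a gene of 174419 bp, held 2 summits in DMSO, 3 in SHP1705, 6 in MG132 and 4 under both drugs, no region of which was shared between lists. Its tallest values were 21.1 in DMSO, the highest of any member there, 0.989 in SHP1705, 14.1 in MG132 and 11.1 under both drugs. COX7B2 was thus lowest in SHP1705 on the FPM scale, where the SHP1705 median peak is low too, and these values come from different places in the gene.

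Of the 6 widely expressed partners, none had a DMSO or MG132 summit and 4 had one in SHP1705: COX4I1 at 11.2, COX8A at 10.9, COX7A2 at 2.93 and COX7B at 0.718. Over all protein-coding genes, which are longer, the shares were 42.1% in DMSO, 51.6% in MG132 and 75.9% in SHP1705. COX7B also had 7.55 in the combination, and COX6B1 had 5.47 there alone, while COX6A1 was empty. The COX8A peak was 305 bp wide, narrower than the other lists could call. Outside the rule, COXFA4 was empty, and its restricted relative COXFA4L2 had 0.942 in DMSO and 1.06 in MG132. COX5A, COX5B and COX6C had low SHP1705 peaks of 0.490, 0.938 and 0.473.

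In complex V, the F1 head makes ATP and the c ring turns in the membrane. Among the 5 head genes, ATP5F1A, the alpha subunit, was found in every list, at 4.21 in DMSO, 6.26 in SHP1705, 4.95 in MG132 and 6.95 under both drugs, in regions that did not overlap. ATP5F1B, the catalytic beta subunit, and ATP5F1D, the delta subunit, were found in SHP1705 alone, at 10.7 and 9.03. ATP5F1C, the gamma subunit of the central shaft, had 7.34 in DMSO, 0.879 in SHP1705 and 1.98 in MG132, and ATP5F1E was empty. The 3 c-ring genes, which encode the same mature protein, differed: ATP5MC2 had 15.6 in DMSO and 1.06 in SHP1705, while ATP5MC1 and ATP5MC3 had only SHP1705 peaks, at 1.58 and 9.90. Of the peripheral stalk, ATP5PO, which confers oligomycin sensitivity, had 12.4 in DMSO and 0.389 in SHP1705, and ATP5PB had 14.4 in SHP1705 and 2.35 in MG132.

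The tallest summit was set against DMSO for members with a summit in both lists. For SHP1705, 6 of 19 members were at least 2-fold higher and 7 at least 2-fold lower, with a median ratio of 0.623, beside 24.4% higher, 52.1% lower and a median of 0.450 over all 7630 genes with both. This count depends on the scale: 15 of 19 were at least 2-fold higher with each library scaled to its median pileup (67.5% of all genes), and 12 on raw pileups (47.8%). For MG132, 3 of 12 were higher and 3 lower, with a median of 0.781 (all genes 13.1% higher, 27.2% lower, median 0.810). For the combination, 3 of 10 were higher and 2 lower, with a median of 0.870 (16.2% higher, 19.9% lower, median 0.912). The 3 comparisons share the DMSO library.

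Set against MG132, the combination was at least 2-fold higher in 3 of 13 members and lower in none (all genes 23.4% and 13.6%), with a median ratio of 0.998. The 3 were SDHC at 5.64, UQCRB at 5.30 and SDHB at 2.2, and of these UQCRB alone was compared at 1 place. SHP1705 was at least 2-fold higher than the combination in 5 of 20 members and lower in 10 (all genes 23.9% and 50.2%), and higher than MG132 in 7 of 23 and lower in 6 (26.2% and 46.0%). UQCRHL, UQCRFS1 and ATP5MF-PTCD1 stood highest over both, at 30.1 to 31.5 times the combination and 21.8 to 31.4 times MG132.

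The members past 2-fold in MG132 were NDUFA5, an accessory subunit of complex I, at 23.9 times DMSO, COX7A2L at 7.35 and SDHA at 3.50. In NDUFA5 the MG132 peak of 13.7 lay at chr7:123577796-123578269, and the DMSO peak of 0.572 within chr7:123541069-123542233, where SHP1705 had 10.8. In COX7A2L the MG132 peak of 7.92 and the combination peak of 9.42 shared chr2:42343068-42343773, where neither DMSO nor SHP1705 had a peak. In the combination COX7A2L stood at 8.75 times DMSO, SDHA at 2.52 and UQCRB at 2.14, and among the 3 only UQCRB was measured at the same region in both lists. Lower than DMSO by 2-fold or more in MG132 were ATP5MF-PTCD1 at 0.201, ATP5F1C at 0.270 and UQCRB at 0.403, and in the combination ATP5MF-PTCD1 at 0.200 and NDUFA10 at 0.400. For most members such a ratio therefore compares different places in the gene.

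Inside the members, peaks at the same place in different lists were few. Overlapping member peaks merged into 197 regions, of which 181 were held by 1 list, 10 by 2, 2 by 3 and 4 by all 4. Of the 19 members with both a DMSO and a SHP1705 summit, 6 had a shared region: UQCRHL, COX7A2L, UQCRFS1, ATP5MF-PTCD1, NDUFA5 and UQCRC2. DMSO shared a region with MG132 in 5 of 12 members and with the combination in 5 of 10, and MG132 with the combination in 6 of 13. No share over all genes was computed for shared regions, so these counts do not set the members apart from other genes.

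The 4 regions held by every list had one height profile. UQCRHL, a gene of 276 bp without introns that is a near copy of the hinge-protein gene UQCRH, had the tallest SHP1705 peak of any member, at chr1:15807191-15807705. Its summit pileup was 109 fragments in DMSO, 9252 in SHP1705, 98 in MG132 and 73 under both drugs, or 3.67, 78.2, 3.59 and 2.58 FPM. COX7A2L encodes a factor that joins complexes III and IV into supercomplexes. Its region chr2:42350528-42351368 had 32, 3933, 29 and 29 fragments in that order of lists, or 1.08, 33.2, 1.06 and 1.02 FPM. UQCRFS1, at chr19:29207357-29208156, had 39, 3264, 32 and 26 fragments, or 1.31, 27.6, 1.17 and 0.918 FPM. The ATP5MF-PTCD1 region, chr7:99442818-99443507, lies inside CPSF4 and the pseudogene LOC100131859 rather than in the subunit gene ATP5MF, and had 32, 3815, 28 and 29 fragments, or 1.08, 32.2, 1.03 and 1.02 FPM.

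In each of these 4 regions SHP1705 was high and the other lists were low and alike. SHP1705 stood 21.0 to 30.9 times above DMSO, with no overlap of exact Poisson intervals (for UQCRHL 76.6 to 79.8 against 3.01 to 4.42). MG132 stood at 0.894 to 0.987 of DMSO and the combination at 0.699 to 0.951, with overlapping intervals (for UQCRHL 2.92 to 4.38 in MG132 and 2.02 to 3.24 in the combination). These intervals count fragments, of which duplicates were kept. In UQCRHL the 4 summits lay within 2 bp of each other and in the other regions within 107 to 192 bp. Although the combination also held SHP1705, its heights lay near those of DMSO and MG132.

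**Figure D3:**
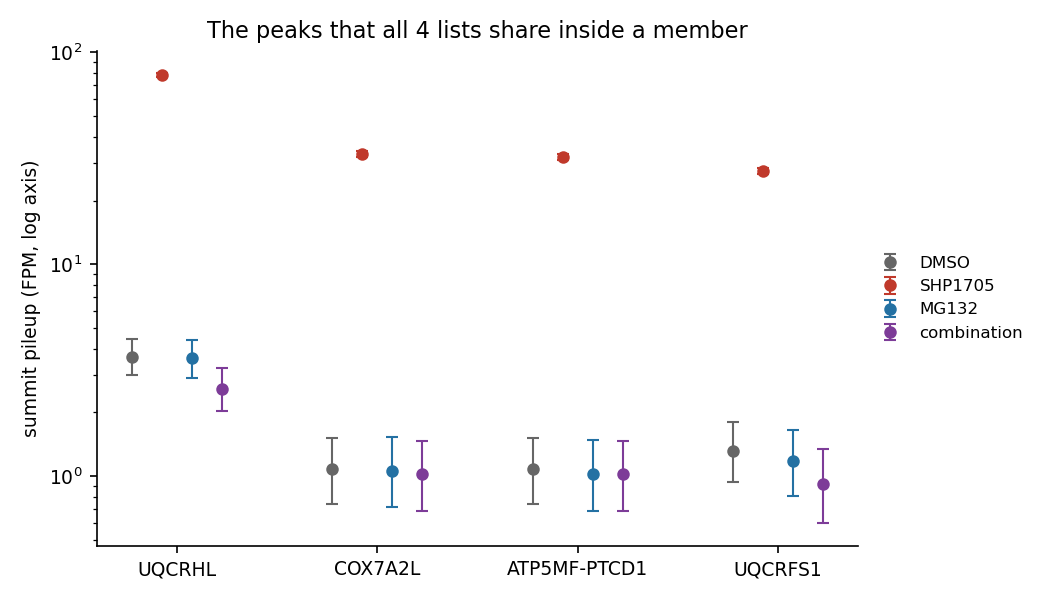
Summit pileup (y axis, FPM, log axis) of the 4 regions inside members that every list holds (x axis), with exact Poisson 95% intervals as error bars. SHP1705 lies between 27.6 and 78.2, and the other 3 lists between 0.918 and 3.67.

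Member regions tall in SHP1705 were shared with another list more often than lower ones, though not all were. Of the 8 member regions at 20 FPM or more in SHP1705, 4 had a DMSO peak, 5 an MG132 peak and 4 a combination peak. The 8 were, beside the 4 above, ATP5MGL at 29.6, SDHC, SDHD and NDUFB5. The regions of ATP5MGL, SDHD and NDUFB5 overlapped no peak of another list. ATP5MGL is an intronless near copy of ATP5MG, the g subunit, inside CYB5R3. Of 21 regions from 5 to under 20 FPM, 2 had a DMSO peak, none an MG132 peak and 1 a combination peak. Of 92 regions under 5, none had a DMSO peak, 5 an MG132 peak and 2 a combination peak. For these counts too, no share over all genes was computed.

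The share of summits near a gene end was highest in SHP1705, where the interval lay apart from that of MG132 and overlapped those of DMSO and the combination. Within 1 kb of either gene end were 41 of 122 summits in SHP1705 (33.6%, 25.8 to 42.4%), 4 of 24 in DMSO (16.7%, 6.68 to 35.9%), 5 of 45 in MG132 (11.1%, 4.84 to 23.5%) and 6 of 34 in the combination (17.6%, 8.35 to 33.5%). Such stretches make up 10.5% of the members' bases and 3.01% of those of all protein-coding genes, where the shares of summits were 20.3%, 7.71%, 6.40% and 6.43% in the same order. SHP1705 thus stood above the share of bases in the members, and the intervals of the other lists include it. Over all genes every list stood above the 3.01% of bases. In genes of known strand, 16 of 102 SHP1705 summits lay within 500 bp of the 3′ end (15.7%, 9.89 to 24.0%, against 6.63% over all genes) and 7 within 500 bp of the start (6.86%, 3.36 to 13.5%, against 6.04%). A fixed window covers more of a short gene, and the members are short. No length-matched share was computed for these windows, so the comparison with all genes does not set the members apart. The other lists had 1 summit each in the last 500 bp, of 19 in DMSO (5.26%, 0.935 to 24.6%), 38 in MG132 (2.63%, 0.466 to 13.5%) and 28 under both drugs (3.57%, 0.633 to 17.7%), and their intervals overlap that of SHP1705.

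The members with a SHP1705 summit in the last 500 bp included COX4I1, whose tallest stood 237 bp before the end at 11.2 FPM. COX8A followed, 193 bp before the end at 10.9, then ATP5MJ, a small membrane subunit of the ATP synthase, 278 bp before it at 7.97, and NDUFB11, a complex I subunit, 114 bp before it at 6.57. UQCRC2 had its SHP1705 summit of 7.07 and its DMSO summit of 18.6 there, 371 and 349 bp before the end. The authors' fold over local background was at least 20 in 8.26% of SHP1705 member peaks, against 66.7% in DMSO, 43.2% in MG132 and 67.6% under both drugs. Over peaks in all protein-coding genes the shares were 5.27%, 65.9%, 51.5% and 61.4% in the same order. The low share in SHP1705 was thus a property of the whole list. A summit inside another gene too was held by 30 of 121 member peaks in SHP1705 (24.8%, 18.0 to 33.2%), 4 of 24 in DMSO (16.7%, 6.68 to 35.9%), 4 of 44 in MG132 (9.09%, 3.59 to 21.2%) and 4 of 34 under both drugs (11.8%, 4.67 to 26.6%), with intervals that overlap.

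**Figure D4:**
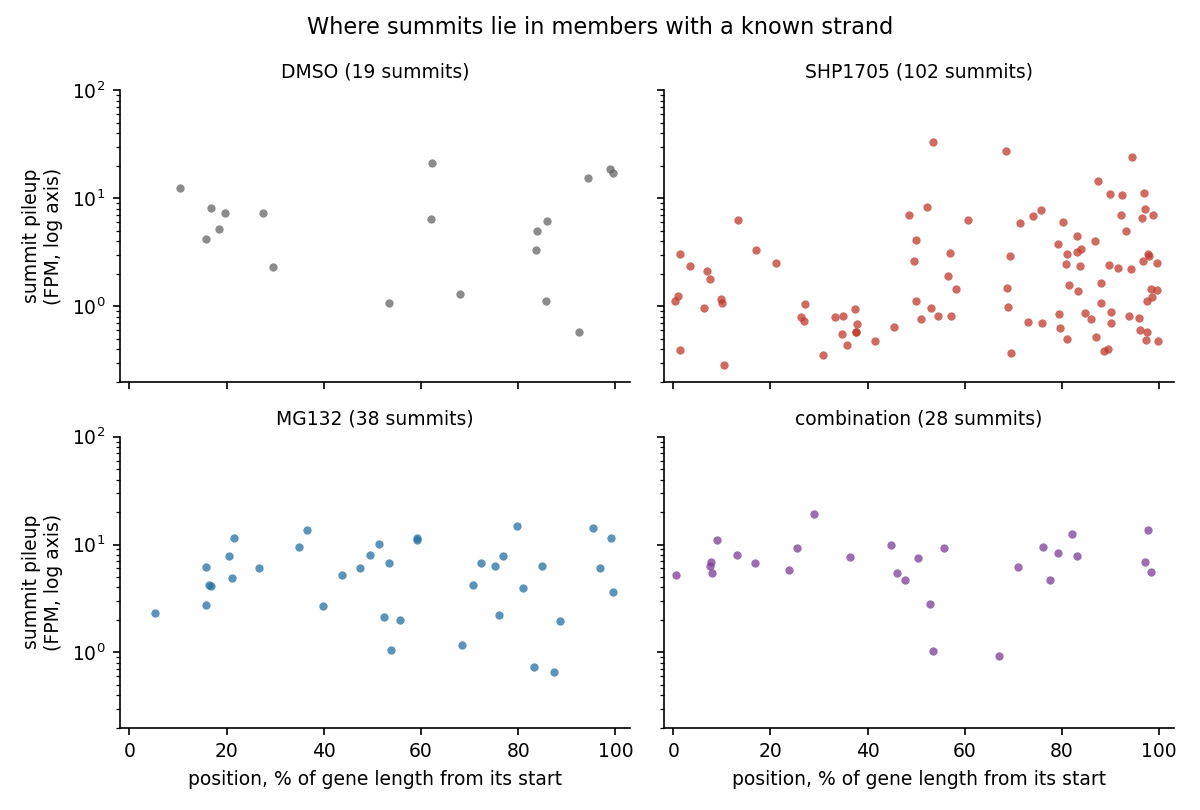
Place of each summit along its gene (x axis, % of gene length from the start) against its height (y axis, FPM, log axis) for members of known strand, with 1 panel a list and 1 point a summit. In the last 500 bp lie 16 of 102 summits in SHP1705, 1 of 19 in DMSO, 1 of 38 in MG132 and 1 of 28 under both drugs.

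Many pseudogene copies carried taller SHP1705 peaks than their genes. RefSeq names 201 pseudogenes after 50 of the members, with a median length of 485 bp. A summit lay inside 26 copies in DMSO (12.9%, against 8.32% of the 16664 pseudogenes of all kinds), 64 in SHP1705 (31.8%, against 22.6%), 27 in MG132 (13.4%, against 9.63%) and 23 under both drugs (11.4%, against 8.37%). The tallest in SHP1705 were COX6A1P2 at 130.1 FPM, UQCRBP1 at 119, NDUFS5P7 at 117, ATP5F1AP3 at 108 and COX7CP2 at 100.0. These copies of COX6A1, NDUFS5 and COX7C stood out beside parents with no SHP1705 summit at all. Reads of a copy and its near-identical parent exons could be placed at either, and how they were placed is not given in the sources used here, so heights at copies, UQCRHL and ATP5MGL are uncertain.

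Among the 64 copies with a SHP1705 summit, 35 were taller than the parent gene, 17 were not, and 12 had a parent with no summit. The same counts were 2, 10 and 14 of 26 copies in DMSO, 6, 6 and 15 of 27 in MG132 and 0, 8 and 15 of 23 under both drugs. With the tallest copy taken for each parent, which favours the copies of parents with many, 40 members had a SHP1705 summit in a copy, of which 26 had a taller copy than gene, 4 a lower one, and 10 had no summit in the gene. The median ratio of copy to gene was 11.3 over the 30 with both, and 21 were past 2-fold. NDUFB4 had the largest ratio, with 76.4 in NDUFB4P12 and 0.406 in the gene. The 4 with a lower copy were UQCRFS1, SDHA, UQCRH and UQCRC2. Among the 15 members empty in all lists, 6 had a copy with a SHP1705 summit: COX6A1, NDUFS5, NDUFB3, NDUFB9, ATP5F1E and ATP5MF.

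**Figure D5:**
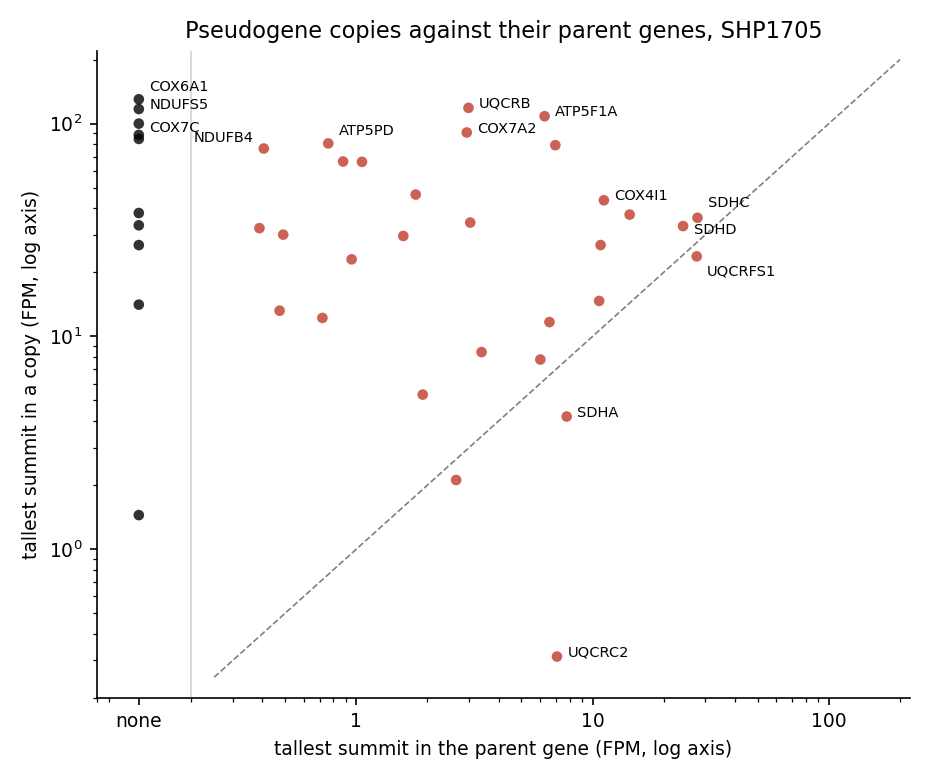
Tallest SHP1705 summit in a pseudogene copy (y axis) against that in its parent gene (x axis), both in FPM on log axes, with 1 point a parent, black points for parents with no summit and a dashed line of equality. Of the 30 parents with both values, 26 lie above the line.

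The copies repeated the profile of the shared regions. A summit in every list was held by 18 copies, whose SHP1705 height was a median 25.4 times that in DMSO, with 0.951 for MG132 and 0.807 for the combination. COX6A1P2, for example, had 4.27 in DMSO, 130.1 in SHP1705, 4.14 in MG132 and 3.64 under both drugs. The 3 with another profile were COX5AP1, SDHAP1 and SDHAP4, where DMSO stood at 19.9, 19.2 and 44.5 FPM. SDHAP1 and SDHAP4 are 30359 and 13855 bp long, against a median of 485 bp for the copies. This count and these ratios were not computed over all pseudogenes, so the profile is not shown to be particular to these copies.

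Genes of the chain outside the symbols taken were set beside the members: 58 genes, mostly assembly factors and carriers, with the subunits CYC1 and COXFA4 among them. Of these, of median length 13666 bp, a summit lay in 17 in DMSO (29.3%), 53 in SHP1705 (91.4%), 24 in MG132 (41.4%) and 18 under both drugs (31.0%), with 9 in all lists and 3 in none. The shares of all protein-coding genes were 42.1%, 75.9%, 51.6% and 45.7%, and no length-matched share was computed for this set. CYCS, the cytochrome c gene, had 0.875 in DMSO, 24.1 in SHP1705, 1.03 in MG132 and 1.16 under both drugs. HIGD1A, a hypoxia-induced partner of complex IV, had 1.41, 39.1, 3.66 and 1.31. In both, as in the 4 shared regions, SHP1705 alone was high. NDUFAF2, a complex I assembly factor in a gene of 207822 bp, went the other way, with 14.4, 1.13, 14.0 and 13.9. CYC1 had 6.80 in SHP1705 alone.

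Of the 8 regulators of these genes, a summit lay in 6 in DMSO, 8 in SHP1705, 7 in MG132 and 4 under both drugs. The shares of all protein-coding genes were 42.1%, 75.9%, 51.6% and 45.7%. The regulators are long, with a median of 40567 bp against 24170 bp for all genes, and a long gene catches more summits. NRF1 had 8.28, 2.97, 10.5 and 2.72 in the order DMSO, SHP1705, MG132 and combination. YY1 had 11.3, 17.2, 2.68 and 11.1. PPARGC1A, the coactivator of mitochondrial biogenesis in a gene of 680885 bp, held 8, 14, 23 and 7 summits, the tallest at 24.4, 1.23, 18.5 and 17.3. TFAM, which transcribes and packs mitochondrial DNA, had 5.74 in SHP1705 alone, and GABPA had 7.16 in SHP1705 and 1.80 in MG132.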

How the data were processed

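Each treatment was 1 STARR-seq library of polyadenylated reporter RNA. The submitters' processing notes name the build hg38 and the tools Trimmomatic, FastQC, Bowtie2 and MACS2, with versions not stated there. Per the file headers, MACS 2.2.6 called peaks in each library alone on paired-end fragments, at a q limit of 0.01, with duplicates kept, no control and a local background over 10000 bp. As signal, the authors deposited the unscaled pileup at each summit. The fold, a ratio of pileup to local background, and the −log10 of p and q were computed by the authors' caller and served only to describe or filter peaks within a list.

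Summits on chromosomes 1 to 22 and X were then assigned to RefSeq GRCh38.p14 genes, and pileups were scaled per 1000000 fragments. Regions were merged where peaks shared at least 1 bp. The gene table holds no exons, and strand was known for 70 members. Shares carry Wilson and heights exact Poisson 95% intervals, for counting error only. Alternatives were peak width, list length, −log10 q, gene margins, readthrough genes, overlap, scaling and thresholds. Genes named with values were those in all lists, the 10 tallest in SHP1705, the 3 tallest in each other list, catalytic cores, isoforms, empty members and those past 2-fold in MG132 or the combination. Others were named after their values were seen. Not every catalytic core gene is reported here by name. The members and lists were chosen with earlier results of these data known. Counting was tested on simulated peaks. Python 3.11.15, pandas 2.3.3, numpy 2.4.6, scipy 1.17.1 and matplotlib 3.10.9 were used.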

Additional observations from a re-analysis of the deposited data

How the results depend on the processing

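Of 74 values recomputed under an alternative, 69 stayed within the spread set for them (1.5 times for counts, the 95% interval for shares) and 5 moved. With lists of equal length, MG132 held a summit in 16 members in place of 25. Members at least 2-fold higher than DMSO in SHP1705 numbered 15 with libraries scaled to their median pileup and 12 on raw pileups, in place of 6. At a threshold of 3-fold, 1 member was higher in the combination in place of 3. Within 500 bp in place of 1 kb of a gene end were 21.3% of SHP1705 member summits in place of 33.6%, as a narrower window holds fewer. Asking for 50% of each peak as overlap, an alternative chosen after seeing the data, left 4, 5 and 5 members sharing a region between DMSO and SHP1705, MG132 and the combination, in place of 6, 5 and 5, and NDUFA5 and UQCRC2 were those lost. No paired analysis was possible because each treatment had 1 library, which also left no replicate to leave out. Of the 121 SHP1705 member peaks, 12 were narrower than the other lists could call, and 58 of its 66 members stayed with lists of equal length. The part of the library's depth in the SHP1705 counts was otherwise not tested.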
